A study of Mus musculus with 9 samples.

Results

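Homologous recombination and the DNA damage checkpoint were followed through 43 genes in tumors and islets of the mouse. The 43 genes were picked by name for their function, with no measured value in the rule but with earlier results of these data known. They are the BRCA complex genes, strand exchange genes, Fanconi anemia genes, RecQ helicases, end-resection genes, checkpoint kinases and adaptors, junction nucleases and 3 genes of mismatch and base repair. All 43 were found among the 54347 genes of the deposited table, and all 43 passed the filter on low counts, which kept 15532 genes. The lowest count of any of the 43 in any library was 10.

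RNA was sequenced from 6 pancreatic neuroendocrine tumors of INS-p25OE mice and from 3 samples of islets of C57BL/6 mice. Tumors M1, M2 and M3 are the functional group, whose titles carry the word Inulin, and M4, M5 and M6 are the non-functional group. INS-p25OE mice are on the C57BL/6 background and carry Ins2-rtTA and tetOp-p25GFP, so that doxycycline, given from weaning at 3 to 4 weeks of age, switches on p25, an activator of the kinase Cdk5, in insulin-producing beta cells. The islet samples NI1, NI2 and NI3 are labelled as normal islets and carry no transgene by their strain label. No doxycycline start is given for the islet mice, so that treatment may differ between tumors and islets. The paper's normal controls were transgene-negative littermates housed together with the INS-p25OE mice. The ages of the animals at collection are not given in the sources used here. 1 library came from a female mouse (M2) and the other 8 from males, and each tumor gave 1 library.

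A double-strand break in DNA can be repaired without loss of sequence by homologous recombination, which copies the missing stretch from the sister chromatid. The ends are first cut back to single strands, BRCA1 and BRCA2 with their partners prepare these strands, strand exchange follows, and helicases and nucleases take the joined molecules apart. The kinases ATM and ATR detect the damage and, through CHK2 and CHK1, hold the cell cycle while repair goes on. Sister chromatids exist only after replication, and many of these genes are known to be transcribed under E2F control as cells enter S phase.

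Because E2F sites are a known feature of such genes, the promoter sequences are described first, though they were searched after the calls were made. RefSeq promoters of GRCm38.p6, from 250 bases before to 50 bases after each annotated start, were available for 33 of the 43 genes. Rad51d, Xrcc2, Rad54b, Fancd2, Wrn, Recql4, Rad50, Nbn, Rbbp8 and Exo1 had no entry. The letters TTTCCCGC, TTTCGCGC, TTTGCCGC or TTTGGCGC, all forms of the E2F site, were searched on both strands, and they overlap no other motif searched. They were found in 7 of the 33 genes (21.2%), against 744 of 32851 promoters in the table (2.26%) and 508 of 11404 tested genes with a promoter (4.45%). The 60-base windows around these matches are shown because the genes that carry them return in the comparison of tumors with islets. Each is written 5′ to 3′ on the strand of its gene, and the capitals mark the match, which reads GCGGGAAA or GCGCGAAA where it lies on the other strand.
Bard1 (chr1:71103148-71103207, minus strand): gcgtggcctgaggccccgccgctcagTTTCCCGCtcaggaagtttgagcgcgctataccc
Brca2 (chr5:150522427-150522486, plus strand): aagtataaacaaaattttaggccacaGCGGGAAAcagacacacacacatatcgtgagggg
Rad51c, first start (chr11:87404462-87404521, minus strand): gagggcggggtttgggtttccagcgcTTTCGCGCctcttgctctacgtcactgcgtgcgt
Rad51c, second start (chr11:87404926-87404985, minus strand): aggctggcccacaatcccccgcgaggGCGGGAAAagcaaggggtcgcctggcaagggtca
Chek2 (chr5:110839805-110839864, plus strand): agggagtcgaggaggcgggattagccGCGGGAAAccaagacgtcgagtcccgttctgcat
Topbp1 (chr9:103305172-103305231, plus strand): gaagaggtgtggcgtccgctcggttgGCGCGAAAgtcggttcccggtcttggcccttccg
Mdc1 (chr17:35841456-35841515, plus strand): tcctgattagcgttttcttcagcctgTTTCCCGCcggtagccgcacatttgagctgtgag
Msh6 (chr17:87975039-87975098, plus strand): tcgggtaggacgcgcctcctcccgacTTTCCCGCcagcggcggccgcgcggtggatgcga

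The match began between positions -209 (Bard1) and 15 (Msh6), with the annotated start counted as 0. The CCAAT box, letters CCAAT, was present in 20 of the 33 genes (60.6%), in 37.4% of all promoters in the table and in 42.4% of the tested genes with a promoter. The cell cycle element CHR, letters TTTGAA, was present in 3 of the 33 (Bard1, Rad51b and Eme1; 9.09%), in 17.9% of all promoters and in 14.5% of the tested genes with a promoter. These matches are letters in a window and no binding was measured.

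Before the comparisons the libraries were checked, and the library labelled NI1 stood apart from the other islets. The deposited counts per library summed to between 36468280 and 63637175. Cdk5r1, the gene of p35 from which p25 is cut, was at 149 to 401 CPM (the library's reads scaled to a common total by TMM) in the tumors, at 18.4 CPM in NI2 and 12.5 CPM in NI3, and at 280 CPM in NI1. Over all tested genes NI1 and tumor M6 were the closest pair of libraries, with a distance of 39.6 in log2(CPM + 1) against 60.1 for NI2 and NI3, and 96.2% of genes lay within 1.5-fold in the 2 libraries. All 43 members lay within 1.5-fold between NI1 and M6, with NI1 at 0.723 to 1.22 of the M6 level and a median of 0.935. For 208 genes that differed at least 8-fold between M6 and the mean of NI2 and NI3, the median position of NI1 was 86.3% of the way to M6. The Cdk5r1 level and the overall profile of NI1 thus went against its label. The comparison of tumors with islets is therefore given with and without NI1, and in counts without both NI1 and M6. NI1 was left out because of its measured closeness to M6, so that the fits without it were chosen with the data in view. In M4, 32.1% of counts were mitochondrial, against 1.76% to 8.41% in the other 8 libraries.

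**Figure D1:**
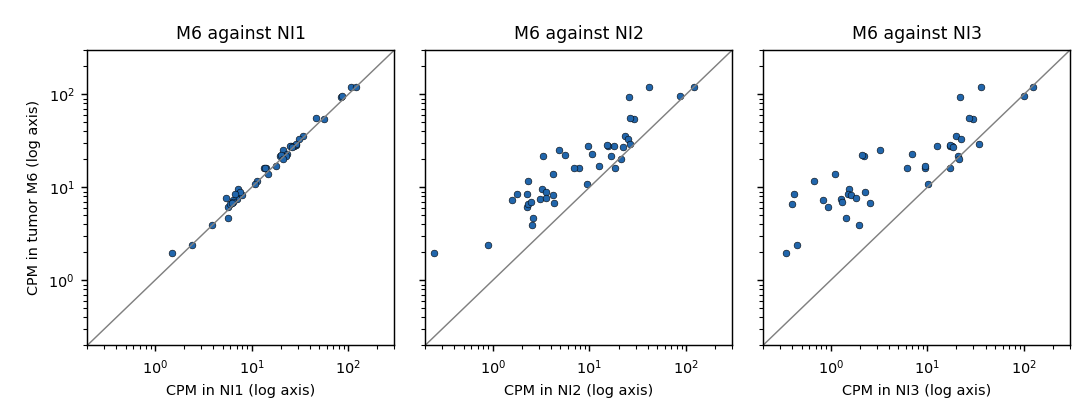
Levels of the 43 genes in tumor M6 (vertical log axis, TMM-scaled CPM) against NI1, NI2 and NI3 (horizontal log axes, TMM-scaled CPM), 1 point per gene, with the line of equal levels in grey. The points follow the line against NI1, where the ratio of NI1 to M6 ran from 0.723 to 1.22, and most lie above it against NI2 and NI3.

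With all 9 libraries, the members were mostly higher in tumors than in islets, but none passed the test. The median log2 fold change of the 43 genes was 1.10, against 0.03 for all tested genes, and 41 of the 43 were above 0 (52.5% of all tested genes were). The range ran from -0.07 for Parp1 to 2.25 for Fanca. By the quasi-likelihood test of edgeR, with Benjamini-Hochberg adjustment over the 15532 genes, 0 of 43 had an adjusted p under 0.05, where 0.258% of all genes did, all of them lower in tumors. The smallest adjusted p among the members was 0.113, for Rad51c. At an unadjusted p under 0.05, 29 members were higher and 0 lower, while 10.7% of all tested genes were higher and 9.14% lower. DESeq2, the tool the submitters' notes name, put 15 of the 43 higher at an adjusted p under 0.05 (background 4.24% of 20706 genes), and limma-voom put 0. Without NI1, described next, DESeq2 put 30 higher (background 10.5% of 21036 genes). DESeq2 was run without the filter on low counts, so its backgrounds are over more genes than those of edgeR.

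Without NI1, 22 of the 43 genes rose in tumors and 0 fell (edgeR, adjusted p under 0.05), where 5.34% of all genes tested rose and 3% fell. The median log2 fold change was 1.52, against 0.05 for all genes. Without both NI1 and M6, 21 of the 43 rose and 0 fell (background 5.89% higher), and the one gene lost was Msh6. Leaving out M6 as well moved the log2 fold change of the 43 genes by -0.12 to 0.14. With NI1 kept, the 22 genes had log2 fold changes of 0.68 to 2.25 and adjusted p of 0.113 to 0.28 (edgeR), so that none of the 22 calls held with NI1 kept. In the gene groups below, changes between tumors and islets are those without NI1 unless 9 libraries are named. For the 22 genes both changes are given, and for the others mostly the change without NI1 alone. With 9 libraries Palb2 changed by 0.93 rather than 1.84, Xrcc3 by 0.26 rather than 0.89 and Rad51d by 0.11 rather than 0.00. These fits rest on 2 islet libraries: leaving out NI2 as well left 4 of 43 called, and leaving out NI3 as well left 0, with the single islet library then assumed to vary as the tumors do. All 6 tumors were above both NI2 and NI3 for 34 of 43 members (16.6% of tested genes), and above all 3 islet libraries for 10 of 43 (4.5% of tested genes). Those 10 were Brca1, Bard1, Rad51c, Rad54l, Rad54b, Fancd2, Recql4, Rbbp8, Slx4 and Gen1. In bulk RNA a lower level can come from fewer cells that use a gene or from less RNA per cell, and these cannot be told apart.

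**Figure D2:**
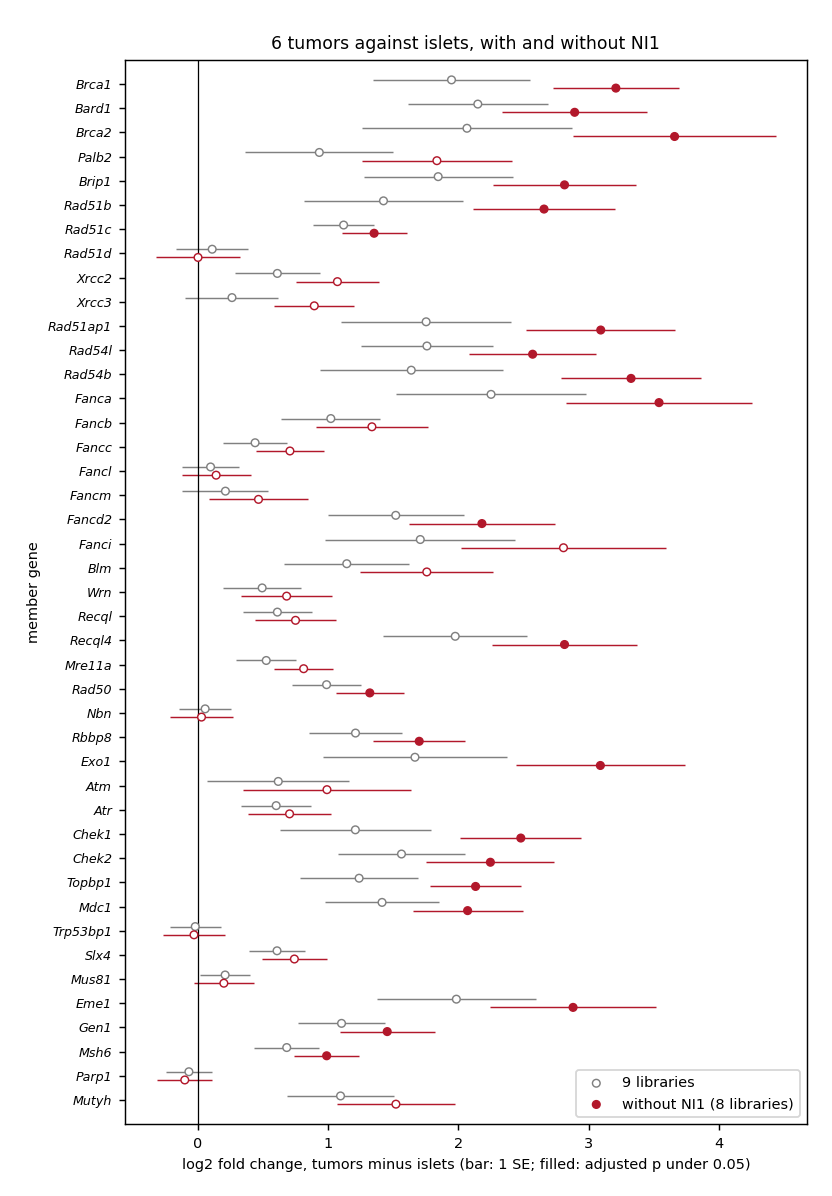
The log2 fold change of tumors over islets for each of the 43 genes, with all 9 libraries (grey) and without NI1 (red). Bars are 1 SE from edgeR and filled points have an adjusted p under 0.05. None of the grey and 22 of the red points are filled, and Parp1, Trp53bp1, Nbn, Rad51d, Fancl and Mus81 stay near 0 in both.

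Of the 7 genes with an E2F match in the promoter, all were among the 22 that rose without NI1. Among the 33 genes with a promoter entry, the letters were present in 7 of the 16 that rose and in 0 of the 17 that did not pass the test. The CHR letters were split in the same direction, in 3 of the 16 and 0 of the 17. The CCAAT letters were present in 9 of the 16 and in 11 of the 17. Rad54b, Fancd2, Recql4, Rad50, Rbbp8 and Exo1 also rose but had no promoter entry. How many of all tested genes with the E2F letters rose was not counted. These motif counts are over genes chosen with earlier results known, and no test was made of them.

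The BRCA complex genes showed the largest median change of the 8 groups of members, 2.89 on the log2 scale without NI1, and 4 of its 5 genes rose. Brca1 (ENSMUSG00000017146; GENCODE, GRCm38 chromosome 11, 101488764 to 101551955, minus strand) is a ubiquitin ligase subunit that directs breaks into recombination. Brca1 was at 54.3, 35.9 and 58.8 CPM in M1, M2 and M3, at 27.5, 23.7 and 25.5 CPM in M4, M5 and M6, at 21.1 CPM in NI1, and at 4.83 and 3.27 CPM in NI2 and NI3. Every tumor was above every islet library, and the 3 functional tumors were above the 3 non-functional ones. The log2 fold change was 1.95 ± 0.61 (SE) with 9 libraries (adjusted p = 0.163, edgeR) and 3.21 ± 0.49 without NI1 (adjusted p = 0.00789, edgeR).

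Brca2 (ENSMUSG00000041147; chromosome 5, 150522630 to 150570329, plus strand), which acts on single-stranded DNA in recombination, had the largest change of all 43 without NI1. Brca2 was at 27.6, 26.5 and 93.0 CPM in M1, M2 and M3, at 16.3, 24.3 and 21.6 CPM in M4, M5 and M6, and at 19.4, 3.27 and 2.23 CPM in NI1, NI2 and NI3. M3 was 3.37 times the next highest tumor, and NI1 lay among the tumors. Its log2 fold change was 3.66 ± 0.78 (SE) without NI1 (adjusted p = 0.0245, edgeR) and 2.07 ± 0.80 with it (adjusted p = 0.207). Bard1, the ubiquitin ligase partner of BRCA1, was at 9.57 to 31.0 CPM in the tumors, 7.23 CPM in NI1, 3.22 CPM in NI2 and 1.56 CPM in NI3, and rose by 2.89 ± 0.56 (SE) without NI1 (adjusted p = 0.0183, edgeR; 2.15 ± 0.54 with 9 libraries). Brip1, a helicase that binds BRCA1, was at 7.27 to 20.9 CPM in the tumors against 2.27 and 1.51 CPM in NI2 and NI3 (change 2.82 ± 0.55 without NI1, adjusted p = 0.0184, edgeR; 1.85 ± 0.57 with 9 libraries). Palb2, the bridge between BRCA1 and BRCA2, was the member that did not pass (log2 fold change 1.84 ± 0.58, adjusted p = 0.0808, edgeR).

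Of the strand exchange genes, 5 of 8 rose without NI1, with a median log2 fold change of 1.96. Rad54b, a DNA translocase of strand exchange, had the largest change of this group. Rad54b was at 16.7, 16.2 and 20.3 CPM in M1, M2 and M3, at 11.9, 12.6 and 11.8 CPM in M4, M5 and M6, and at 11.4, 2.29 and 0.669 CPM in NI1, NI2 and NI3. Its log2 fold change was 3.33 ± 0.54 (SE) without NI1 (adjusted p = 0.0102, edgeR) and 1.64 ± 0.70 with 9 libraries (adjusted p = 0.236). Of its exonic length, 2068 bases are shared on the same strand with Fsbp, and reads of the 2 genes may have been split between them. Rad51ap1, an accessory gene of strand exchange, rose by 3.09 ± 0.57 without NI1 (SE; adjusted p = 0.0154; 1.75 ± 0.65 with 9 libraries), and Rad54l, a translocase of the same family as Rad54b, rose by 2.57 ± 0.49 (adjusted p = 0.0166, edgeR; 1.76 ± 0.51 with 9 libraries).

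The remaining genes of this group were uneven. Rad51b, the least abundant member per length in the tumors and in NI2 and NI3, was at 1.47 to 2.49 CPM in the tumors, 1.49 CPM in NI1, 0.244 CPM in NI2 and 0.347 CPM in NI3, and rose without NI1 (log2 fold change 2.66 ± 0.54, adjusted p = 0.022, edgeR; 1.43 ± 0.61 with 9 libraries). Rad51c was at 22.4, 24.3, 22.9, 23.0, 24.3 and 16.3 CPM in M1 to M6 against 13.3, 7.76 and 9.57 CPM in NI1, NI2 and NI3. All 6 tumors were above all 3 islet libraries, and its change was 1.35 ± 0.25 (SE) without NI1 (adjusted p = 0.0153, edgeR) and 1.12 ± 0.23 with 9 libraries. Rad51d, in contrast, was at 11.7 to 24.3 CPM in the tumors and at 14, 18.3 and 17.3 CPM in the islets, so that the groups overlapped and the log2 fold change was 0.00 ± 0.32 without NI1. Xrcc2 and Xrcc3 had log2 fold changes of 1.07 ± 0.32 and 0.89 ± 0.31 and did not pass the test (adjusted p = 0.0703 and 0.103, edgeR).

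Fanconi anemia genes act together on DNA crosslinks: a core complex, with FANCL as its ubiquitin ligase, marks the FANCD2 and FANCI pair. Fanca and Fancd2 rose without NI1, 2 of the 7, and the median of the group was 1.34 on the log2 scale. Fanca, of the core complex, was at 18, 14.4 and 27.0 CPM in M1, M2 and M3, at 13.1, 5.40 and 7.32 CPM in M4, M5 and M6, and at 6.48, 1.59 and 0.843 CPM in NI1, NI2 and NI3. Its change was 3.54 ± 0.72 (SE; adjusted p = 0.0216, edgeR) without NI1 and 2.25 ± 0.73 with 9 libraries, with 920 exonic bases shared with Zfp276 on the opposite strand. Fancd2 rose by 2.18 ± 0.56 (adjusted p = 0.0436; 1.52 ± 0.52 with 9 libraries), while its partner Fanci, at 5.73 to 17.4 CPM in the tumors and 2.29 and 0.397 CPM in NI2 and NI3, missed the threshold (2.81 ± 0.79, adjusted p = 0.0579, edgeR). Fancl was near level, at 8.93 to 12.5 CPM in the tumors and 9.44 to 10.7 CPM in the 3 islet libraries (log2 fold change 0.14 ± 0.27). Fancm, the translocase of the pathway, had a change of 0.47 ± 0.38, Fancc one of 0.71 ± 0.26 and Fancb one of 1.34 ± 0.43, with adjusted p between 0.087 and 0.463 (edgeR).

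Among the 4 RecQ helicases, which unwind recombination intermediates, Recql4 alone passed the test without NI1. Recql4 was at 9.61, 12.7 and 14.7 CPM in M1, M2 and M3, at 13, 24.0 and 7.0 CPM in M4, M5 and M6, and at 6.45, 2.51 and 1.31 CPM in NI1, NI2 and NI3. Unlike most members it was highest in M5, a non-functional tumor, and its change was 2.82 ± 0.55 without NI1 (SE; adjusted p = 0.0196, edgeR) and 1.98 ± 0.55 with 9 libraries. Blm, mutated in Bloom syndrome, had a change of 1.76 ± 0.51 (adjusted p = 0.0636), Recql one of 0.75 ± 0.31 (adjusted p = 0.16, with 2895 exonic bases shared with Pyroxd1 on the opposite strand) and Wrn, mutated in Werner syndrome, one of 0.68 ± 0.35 (adjusted p = 0.243, all edgeR).

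End resection was divided. Mre11a, Rad50 and Nbn encode the complex that binds the break. Rbbp8 encodes CtIP, which acts with that complex at the start of resection, and Exo1 the exonuclease that extends it. Exo1 was at 5.31 to 13.5 CPM in the tumors, 6.67 CPM in NI1, 1.78 CPM in NI2 and 0.421 CPM in NI3, and rose by 3.09 ± 0.65 (SE; adjusted p = 0.0237, edgeR) without NI1, against 1.67 ± 0.70 with 9 libraries. Rbbp8 rose by 1.70 ± 0.36 (adjusted p = 0.0234; 1.21 ± 0.36 with 9 libraries) and Rad50 by 1.32 ± 0.26 (adjusted p = 0.0203; 0.99 ± 0.27 with 9 libraries). Within the complex of 3, Mre11a had a change of 0.81 ± 0.23 (adjusted p = 0.0587, edgeR). Nbn was at 24.8 to 42.5 CPM in the tumors and 26.5 to 33.9 CPM in the 3 islet libraries, with a change of 0.03 ± 0.24.

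The checkpoint genes held the most abundant member per length in the tumors, Mdc1, and 4 of the 7 rose without NI1. Mdc1, an adaptor that binds the marked chromatin at a break, was at 176, 203 and 268 CPM in M1, M2 and M3, at 114, 99.9 and 118 CPM in M4, M5 and M6, and at 106, 41.2 and 36.3 CPM in NI1, NI2 and NI3. The functional tumors were highest, and NI1 lay between M5 and the other 5 tumors. Its change was 2.07 ± 0.42 (SE; adjusted p = 0.0219, edgeR) without NI1 and 1.41 ± 0.44 with it (adjusted p = 0.162). Topbp1, which activates ATR, was at 60.8 to 147 CPM in the tumors and at 84.9, 25.7 and 21.7 CPM in NI1, NI2 and NI3 (change without NI1 2.13 ± 0.35, adjusted p = 0.0105, edgeR; 1.24 ± 0.45 with 9 libraries).

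The effector kinases rose and the sensor kinases did not pass the test. Chek1, the kinase below ATR, was at 23.1, 27.8 and 25.8 CPM in M1, M2 and M3, at 12.8, 17.5 and 22.2 CPM in M4, M5 and M6, and at 20.2, 5.56 and 2.13 CPM in NI1, NI2 and NI3 (change without NI1 2.48 ± 0.46, adjusted p = 0.0161, edgeR; 1.21 ± 0.58 with 9 libraries). Chek2, the kinase below ATM, was at 4.72 to 12.4 CPM in the tumors and at 5.74, 2.64 and 1.44 CPM in the islets (2.25 ± 0.49 without NI1, adjusted p = 0.0265, edgeR; 1.56 ± 0.48 with 9 libraries). Atm was at 77.6, 58.4 and 104 CPM in M1, M2 and M3, at 47.4, 10.4 and 54.7 CPM in M4, M5 and M6, and at 55.9, 29.1 and 29.9 CPM in NI1, NI2 and NI3. M5 was thus below all 3 islet libraries while the other 5 tumors were above NI2 and NI3, and the change of Atm was 0.99 ± 0.65 (adjusted p = 0.358, edgeR). Atr changed by 0.70 ± 0.32 (adjusted p = 0.196). Trp53bp1, which directs breaks toward end joining, was at 86.8 to 167 CPM in the tumors and 120 to 124 CPM in the islets, a change of -0.03 ± 0.24, with 2130 exonic bases shared with Tubgcp4 on the opposite strand.

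Of the nucleases that cut joined molecules, Eme1 and Gen1 rose and the partner of Eme1, Mus81, did not pass the test. Eme1 was at 2.38 to 7.66 CPM in the tumors and at 2.42, 0.903 and 0.446 CPM in NI1, NI2 and NI3, and rose by 2.88 ± 0.64 (SE; adjusted p = 0.0274, edgeR) without NI1, against 1.99 ± 0.61 with 9 libraries. Gen1, at 6.70 to 11.2 CPM in the tumors and 2.58 to 6.29 CPM in the islets, rose by 1.45 ± 0.37 (adjusted p = 0.0421; 1.10 ± 0.34 with 9 libraries). Mus81 was at 19.9 to 30.8 CPM and 20.9 to 21.3 CPM (change 0.20 ± 0.23), and the scaffold Slx4 had a change of 0.74 ± 0.25 (adjusted p = 0.0969, edgeR). In the last group Msh6, which recognizes mismatches, rose by 0.99 ± 0.25 without NI1 (adjusted p = 0.0435; 0.68 ± 0.25 with 9 libraries). Mutyh, a glycosylase of oxidized DNA, had a change of 1.52 ± 0.45 (adjusted p = 0.0698, edgeR). Parp1, which senses strand breaks, was at 67.4 to 103 CPM in the tumors and 85.8 to 99.2 CPM in the islets, a change of -0.10 ± 0.21.

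**Figure D3:**
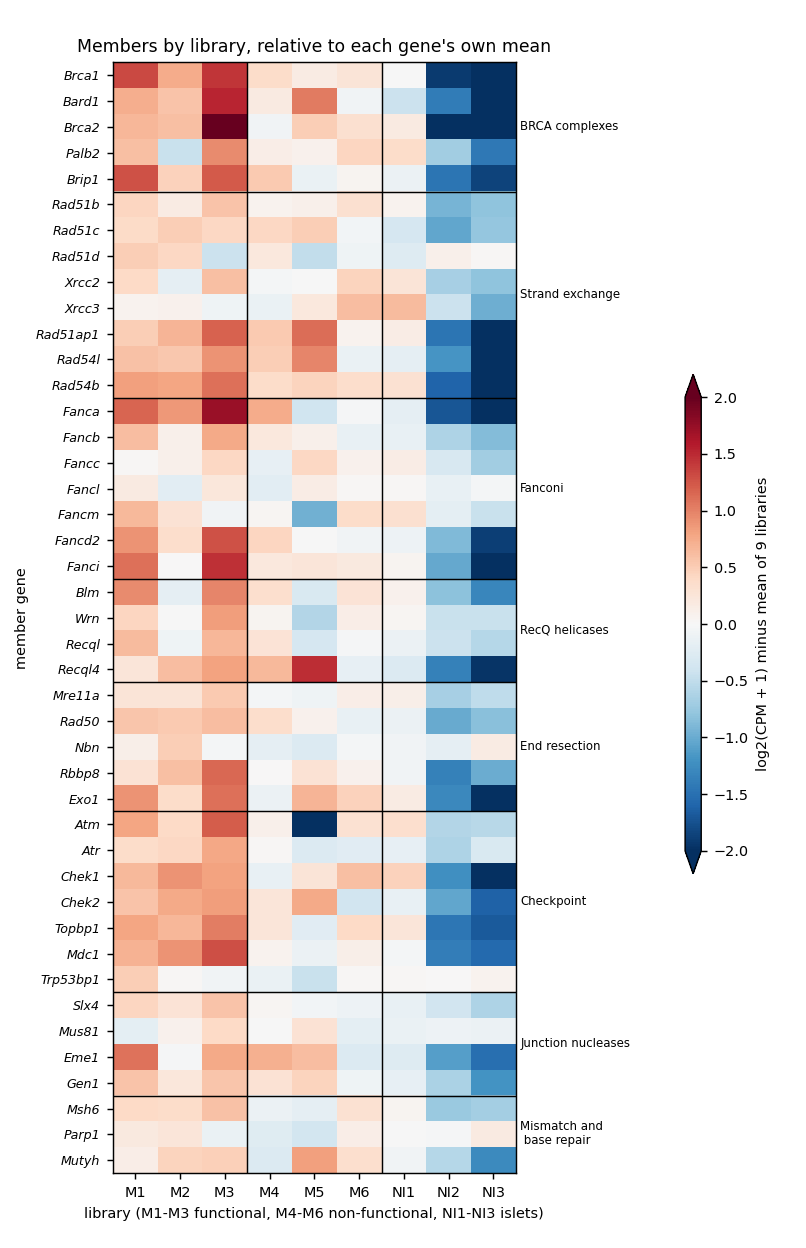
Levels of the 43 genes in the 9 libraries as log2(CPM + 1) minus each gene's mean over the 9 libraries, with red above and blue below that mean and members ordered by role. NI2 and NI3 are blue for most genes and NI1 resembles M6, while Parp1, Trp53bp1, Nbn and Rad51d stay pale there. Colors end at 2 in either direction. Brca2 passes this upward in M3, and several genes, Brca1 and Rad54b among them, pass it downward in NI3.

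Scaled to exonic length (CPM per 1 kb of GENCODE exons), the members spanned a wide range in the tumors. Mdc1 had the highest mean level per length, 22.0 in the 6 tumors and 5.22 in NI2 and NI3. Parp1 (16.3 and 17.5), Msh6 (12.3 and 6.17) and Nbn (12.2 and 11.9) followed. At the low end stood Rad51b (0.501 and 0.0786), Palb2 (0.777 and 0.217) and Exo1 (1.12 and 0.131). Per length, Parp1 was thus the highest member in NI2 and NI3, and Mdc1 in the tumors. Exonic bases were shared with another gene for 21 of the 43 members, and the kit used does not mark strand, so reads of such stretches cannot be told apart.

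Other genes of the pathway, taken from lists of 101 genes of which 99 were tested, moved less on the median. Without NI1, 30 of the 99 rose and 0 fell (5.34% and 3% of all tested genes), with a median log2 fold change of 0.46, and with 9 libraries 0 were called and the median was 0.27. The largest changes on the log2 scale were those of Neil3, a glycosylase (5.08), Rmi2, a partner of BLM (4.77), Cdc25c, a phosphatase that CHK1 restrains (3.50), Fignl1 (3.47) and Clspn, which brings CHK1 to ATR (3.46). Of the 11 genes of end joining, the other main route of break repair, Polq alone passed the test, 1 of 11 against 5.34% of all tested genes, and the median was 0.24.

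The lists of proliferation and replication genes were, like the members, higher in the tumors than in NI2 and NI3. Without NI1, 12 of 15 proliferation genes (Mki67, Top2a and others) and 15 of 15 replication genes (Pcna, the Mcm genes and others) rose, with medians of 2.35 and 2.70 on the log2 scale, where 5.34% of all tested genes rose, and their defining markers were present in every library. Without both NI1 and M6, 14 of 15 rose in each list, and with 9 libraries 0 did (medians 1.73 and 1.36). The summed level of the proliferation genes was 435 to 1293 CPM in the tumors, 412 CPM in NI1, 217 CPM in NI2 and 70.0 CPM in NI3, and that of the replication genes was 940 to 1787, 1165, 228 and 189 CPM. Their part in the differences between tumors and islets was not tested. Over the libraries the median level of the members in log2(CPM + 1) was 4.39, 4.51 and 4.74 in M1, M2 and M3, 3.93, 4.18 and 4.11 in M4, M5 and M6, and 3.98, 2.97 and 2.84 in NI1, NI2 and NI3. The end-joining genes stayed between 3.76 and 4.46 in all 9 libraries.

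**Figure D4:**
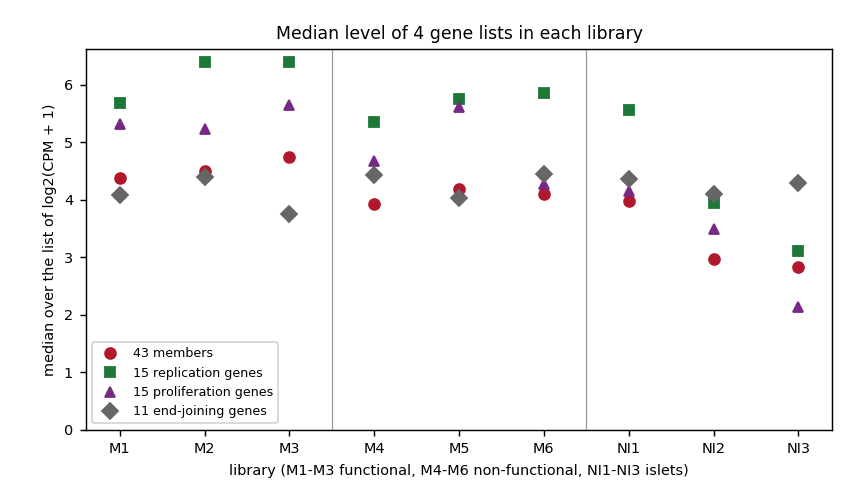
Median of log2(CPM + 1) over the 43 members, the 15 replication genes, the 15 proliferation genes and the 11 end-joining genes in each of the 9 libraries. The first 3 lists are lowest in NI2 and NI3 (members 2.97 and 2.84), and the end-joining genes lie between 3.76 and 4.46 throughout.

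Marker lists of other cells also differed between tumors and islets. Beta cell markers, Ins1 and Ins2 included, were present in all 9 libraries, at summed levels of 19419 to 117952 CPM in the tumors and 329426 to 367448 CPM in NI2 and NI3. Without NI1, 3 of 10 macrophage genes rose (summed level 471 to 1309 CPM in the tumors against 313 and 195 CPM in NI2 and NI3), 4 of the 9 lymphoid genes tested fell, and 12 of 15 genes of the dissociation response fell (summed level 279 to 473 CPM in the tumors, 962 CPM in NI1, 3425 and 1959 CPM in NI2 and NI3). Of the 9 acinar genes tested, 1 fell without NI1 (median log2 fold change -6.28) and 8 fell without both NI1 and M6 (-8.28), and their summed level was 1.07 to 226 CPM in the tumors, 419 CPM in NI2 and 6368 CPM in NI3. Of the fibroblast genes 1 of 8 rose, and 0 of 9 endothelial and 0 of 6 tested ductal genes passed the test. Of the 11 beta cell genes, 1 fell. Without both NI1 and M6 3 macrophage and 2 fibroblast genes rose, 4 lymphoid and 12 dissociation genes fell and 0 beta cell genes passed the test, and with 9 libraries the calls were 2 lymphoid and 9 dissociation genes, all lower. Of all tested genes, 5.34% rose and 3% fell without NI1, and 5.89% rose without NI1 and M6. With 9 libraries 0% rose and 0.258% fell. The share that fell without NI1 and M6 is not given here. The part of these lists in the members' differences was not tested.

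Functional and non-functional tumors, which the study separates by hormone release, were compared next. No member passed the test (0 of 43 in edgeR, where 0% of all genes passed, and 0 in DESeq2, where 0.477% passed and 41 members had an adjusted p). The smallest adjusted p was 0.455 in edgeR and 0.244 in DESeq2. At an unadjusted p under 0.05, 3 members were higher in functional tumors (Atr, Mdc1 and Slx4) and 0 lower, where 4.71% of all genes were higher and 5.58% lower. That count depended on single libraries: it was 11 higher and 0 lower without NI1 (background 4.98% and 5.48%), 6 higher without NI1 and M6 (background 7.46%) and 1, Atr, without M3 (background 3.43%). NI1, an islet library, is no part of the tumor difference itself, whose median over the members was 0.46 with and without it. Without NI1, Brca1 differed by 0.96 ± 0.25 (SE; unadjusted p = 0.00495 and adjusted p = 0.439 in edgeR). On the median the members were higher in functional tumors by 0.46 on the log2 scale, against 0.01 for all genes, and 41 of 43 were above 0 (50.8% of all genes). The 3 functional tumors lay above the 3 non-functional ones, without overlap, for 13 of 43 members (8.77% of all genes) and below them for 0 (6.24%). Those 13 were Brca1, Brca2, Rad54b, Fanca, Mre11a, Rad50, Atm, Atr, Chek1, Topbp1, Mdc1, Slx4 and Msh6.

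The largest difference was that of Brca2, 1.24 ± 0.80 (SE; adjusted p = 0.61, edgeR), and without M3 it was 0.38 ± 0.79 (adjusted p = 0.918, edgeR). These fits, and those below unless stated, keep NI1, which enters the spread and not the difference between the tumors. Without NI1 the difference of Brca2 was 1.24 ± 0.49 (SE; unadjusted p = 0.0352 and adjusted p = 0.459 in edgeR). The SE of Brca1 was 0.25 without NI1, against 0.59 with it. Atr, the sensor kinase of replication stress, was at 33.7, 34.5 and 44.7 CPM in the functional and 26.2, 21.2 and 21.9 CPM in the non-functional tumors, with NI1, NI2 and NI3 at 22.8, 16.5 and 20.7 CPM. The difference was 0.70 ± 0.21 (SE; unadjusted p = 0.00893 and adjusted p = 0.455 in edgeR). For Mdc1 the means were 216 ± 47.2 (SD, n = 3) and 111 ± 9.67 CPM (SD, n = 3), a difference of 0.96 ± 0.39 (SE). For Atm the means were 80.1 ± 23.0 and 37.5 ± 23.8 CPM (SD, n = 3 each), a difference of 1.09 ± 0.54. Fanca differed by 1.20 ± 0.69 and Brca1 by 0.96 ± 0.59, each with an adjusted p above 0.5 in edgeR. The proliferation and replication lists were also higher in functional tumors on the median (0.43 and 0.45 on the log2 scale), with 0 of 15 called in each. Without M3 their medians were 0.24 and 0.24, against 0.37 for the members. Without NI1 and M6 they were 0.15 and 0.53, against 0.45 for the members.

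**Figure D5:**
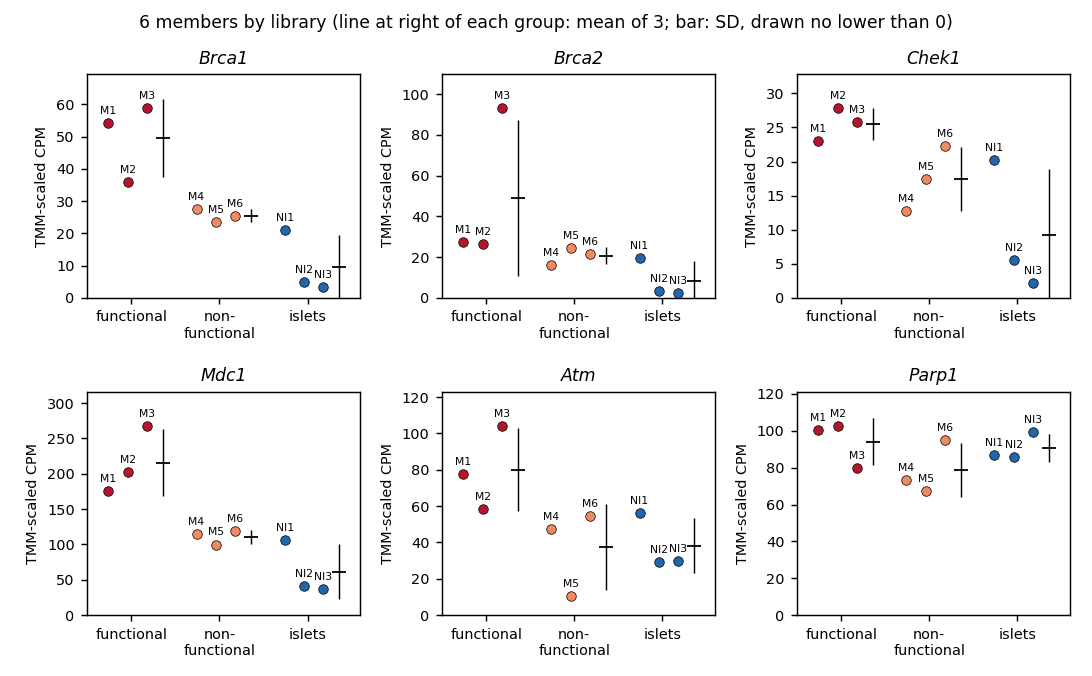
TMM-scaled CPM of Brca1, Brca2, Chek1, Mdc1, Atm and Parp1 in each library, with the mean (line) and SD (bar, n = 3) to the right of each group. The functional tumors lie above the non-functional ones for all of these but Parp1, M3 stands above the other tumors for Brca2 at 93.0 CPM, and M5 lies lowest for Atm at 10.4 CPM.

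Each tumor group was also set against the islets, which both comparisons share. With 9 libraries, 0 of 43 members were called in functional tumors (background 0.0451% higher) and 0 in non-functional tumors (background 0% higher). Without NI1, 26 rose in functional tumors (background 5.16%) and 15 in non-functional tumors (background 2.88%), and 0 fell in either (background 2.66% and 1.04%). The log2 fold change of Brca1 was 3.61 ± 0.33 (SE) in functional and 2.65 ± 0.31 in non-functional tumors, that of Mdc1 2.47 ± 0.25 and 1.52 ± 0.24, and that of Recql4 2.68 ± 0.59 and 2.94 ± 0.60. Atr was called in functional tumors (1.01 ± 0.24, adjusted p = 0.0426, edgeR) and not in non-functional ones (0.31 ± 0.24, adjusted p = 0.453). The difference between the tumor groups is the comparison above, in which no member passed.

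Among single tumors, M3 was the highest of the 6 for 28 of the 43 members (16.8% of tested genes) and the lowest for 0 (18% of tested genes). M5 was the lowest for 17 (21.2% of tested genes), among them Brca1, Atm, Atr, Topbp1 and Mdc1, and M6 for 13 (14%). M5 was nonetheless the highest for Rad54l, Fancc, Recql4 and Mutyh. M3 also had the highest summed level of proliferation genes (1293 CPM) and of replication genes (1787 CPM) among the tumors. The other tumors did not keep 1 order over these lists. M5 was at 943 CPM for proliferation genes, above M2, M4 and M6, and at 1167 CPM for replication genes. M6 had the lowest proliferation sum, 435 CPM, with a replication sum of 1333 CPM. Without M3, the median difference between functional and non-functional tumors was 0.37 and 34 of 43 members were above 0 (50.9% of all genes).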

How the data were processed

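Per the paper's methods and the submitters' processing notes, the authors trimmed single-end reads with Trimmomatic 0.38, quantified them with Salmon 1.4.0 against mm10 and tested them with DESeq2. The step from transcripts to genes is not given in the sources used here. The deposited table is named for TPM, but its values are whole numbers with different column sums, so they were treated as the authors' estimated read counts, unscaled between libraries, and a test for counts replaced the planned test for TPM. Identifiers were matched to GENCODE for GRCm38 (54094 of 54347; the other 253 held 0.0121% of counts).

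Genes kept by a filter of 1 CPM or more in 3 or more libraries were tested with edgeR 4.0.16 in R 4.3.3 (TMM scaling, quasi-likelihood test, two-sided, Benjamini-Hochberg over all tested genes, called at an adjusted p under 0.05). Pooled tumors and islets were compared in a fit of 2 groups, and the tumor groups in a fit of 3. SE is the log2 fold change over the square root of F. DESeq2 1.42.0 and limma 3.58.1 (voom) were alternatives. The fits were also run on simulated counts with 200 changed genes. No simulated islet library resembled a tumor, so those runs say nothing about the effect of NI1. The members and gene lists were chosen with earlier results of these data known. Members past the threshold, with an outlying tumor or at either end of their group were named with values, and at most 12 other pathway genes by size of change. 1 gene of the pathway lists is not reported here by name, though the lists' counts and medians include it. The p-values rest on a spread estimated for each gene over tumors and islets together, not on that of the islets alone. The paper describes its samples as biological replicates. A floor of 3 counts was 0.0425 to 0.119 CPM, for counting error only.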

Additional observations from a re-analysis of the deposited data

Results flagged for a closer look

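Among the 6 tumors, the highest or lowest value stood apart from the rest by Dixon's test at the 95% level for 2 of the 43 members, where chance gives about 2.15. Brca2 was at 93.0 CPM in M3, a gap of 0.852 of the whole range (critical value 0.625). The tested genes within 500 kb were higher in M3 than in the next tumor by 1.5 times (Pds5b), 1.42 times (N4bp2l2), 1.27 times (Stard13), 1.26 times (N4bp2l1) and 1.13 times (Gm43597), against 3.37 times for Brca2, while Fry was at 0.991 and Kl at 0.479 of the highest other tumor. Rad51c was at 16.3 CPM in M6, below the other 5 tumors at 22.4 to 24.3 CPM, a gap of 0.758 of the range.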

How the results depend on the processing

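The count of members higher in tumors than in islets depended on NI1, on the tool and on single islet libraries. With 9 libraries the 0 called by edgeR became 15 with DESeq2, 21 without NI1 and M6, and 0 to 22 when single libraries were left out (22 without NI1, 1 without M6, 0 for each of the others). Without NI1, the 22 became 11 with limma-voom and 0 to 21 with a further library left out (0 without NI3, 4 without NI2). For functional tumors the 0 became 5 at an adjusted p under 0.1, 7 with no filter on low counts, 18 with DESeq2, 25 without NI1 and M6, and 0 to 26 with single libraries left out. For non-functional tumors it became 2 with DESeq2, 15 without NI1 and M6, and 0 to 15 with single libraries left out. The share of all genes called higher moved with the setting too. For all tumors it was 0% in edgeR with 9 libraries, 4.24% with DESeq2, 5.34% without NI1 and 5.89% without NI1 and M6. Without NI1 it was 5.16% for functional and 2.88% for non-functional tumors. For the other settings that share is not given here, so their counts of members cannot be set against it. The median log2 fold change of the members was 1.54 without NI1 and M6 and 0.82 to 1.52 with single libraries left out. The cause was not tested. With a replicate block pairing M1, M2 and M3 with NI1, NI2 and NI3, 0 members were called, and same-numbered libraries did not deviate together (correlations -0.05, 0.03 and -0.16). The members that turned direction were not called in either fit. With single libraries left out of the 9, log2 fold changes ran from -0.059 to 0.89 for Xrcc3, from -0.056 to 0.16 for Nbn and from -0.14 to 0.060 for Trp53bp1. Trp53bp1 was at 0.21 on library totals and 0.011 without the filter on low counts, and Parp1 at 0.17 on library totals. Without NI1 and 1 further library, they ran from -0.11 to 0.11 for Rad51d, from -0.15 to 0.21 for Nbn, from -0.15 to 0.056 for Trp53bp1 and from -0.21 to 0.00017 for Parp1. Without NI1, Rad51d was at -0.0021 with DESeq2's size factors and -0.052 with limma-voom, Trp53bp1 at 0.35 on library totals and 0.015 without the filter, and Parp1 at 0.28 on library totals. The limits that remain are 2 islet libraries beside NI1, 1 library per tumor, and members with few counts in NI2 and NI3, such as Rad51b.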
